A study of Mus musculus with 4 samples.

Results

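Classical cadherins and nonclustered protocadherins are cell surface proteins that bind calcium and hold neighbouring cells together. Classical cadherins prefer partners of the same or a related kind, and their cytoplasmic tails reach the actin cytoskeleton through catenins. Type II cadherins and delta-protocadherins are known for their patchwork expression over neuron types, where they take part in the sorting of axons and the choice of synaptic partners. The genes described here are the 33 of 31053 gene rows whose symbol is Cdh or Pcdh followed only by digits, leaving out Cdh5, the vascular endothelial cadherin. They fell into 5 type I and 12 type II classical cadherins, 5 other cadherins, 3 delta-1, 5 delta-2 and 3 other protocadherins. The set was chosen by symbol and not by its values, though with earlier results of these data known.

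RNA was counted in single nuclei of the brains of untreated 2-month-old female C57/BL6 mice. Each molecule carried a unique molecular identifier (UMI), and distinct UMIs were counted. Wild-type (WT) brains were compared with brains of mice that lack 1 copy of Csf1r, the receptor for the growth factors on which microglia depend (Csf1r+/-, HET), and the deletion was in the germline and so present in every cell type. Of each genotype, 2 libraries were used, each from 1 brain, with 111488169 and 88097109 UMIs in the WT and 88147428 and 89314464 in the HET libraries after the filters on nuclei. Csf1r stood at 844 and 837 CPM (UMIs of a gene scaled to a common total of UMIs) in WT microglia and at 595 and 572 in HET microglia.

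Of 52132 nuclei kept, 48070 were placed in classes by marker genes and 4062 (7.79%) were left unnamed, mostly for high doublet scores. Cadherins and their partner genes took no part in the clustering, although genes that vary with them did. Levels were described in 19 neuron subtypes and 7 glial and vascular classes, from 4154 upper-layer intratelencephalic (L2/3 IT) neurons down to 119 oligodendrocyte precursors (OPC), 48 mural cells, 47 astrocytes and 30 fibroblasts. The named nuclei held 30838 excitatory, 12909 inhibitory and 375 mixed neurons. Of these neurons 27727 had a subtype, and the others entered no statement on subtypes. The largest cluster, of 4087 inhibitory neurons, had none. Every subtype and every glial or vascular class met at least 4 of its markers, with the lowest share (4 of 9) in subcortical glutamatergic neurons, and oligodendrocytes, OPC, microglia and endothelial cells met 10 of 10. The same markers gave the names, so this is no independent check. Some missed markers were lower than in other nuclei: Cpne4 in hippocampal pyramidal (57.0 against 255 CPM), Sulf1 in deep IT (5.96 against 44.6) and Tox in L4 IT neurons (127 against 332), among others. Of the 2370 oligodendrocytes, 1219 came from WT replicate 2, and of the 119 OPC, 84 did. The astrocytes, mural cells and fibroblasts rest on 3 to 23 nuclei in each library and their levels are coarse.

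A level in CPM scales a gene's UMIs by all UMIs of the class in 1 library. It is comparable between classes for 1 gene but not between genes, because longer genes can collect more nuclear reads. In such sums, fewer cells that express a gene cannot be told apart from less RNA per cell. Values by library are in the order WT replicates 1 and 2, then HET replicates 1 and 2, and means carry the SD over these 4 libraries of both genotypes. Levels were described and not tested.

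Of the 33 genes, 26 reached a mean of 20 CPM in at least 1 class. Of these 26, 17 were highest in a neuron subtype and 9 in a glial or vascular class. In 11 of the 26 the libraries of the highest class did not overlap those of the next class. The same share over all genes was not computed, so this count does not set the family apart. The other 7 genes were close to absent: over all 52132 nuclei, Cdh1 (E-cadherin) had 28 UMIs, Cdh3 (P-cadherin) 40, Cdh15 (the muscle cadherin) 91, Cdh16 9, Cdh17 12, Cdh26 20 and Pcdh12 25. Of these, Pcdh12, known from vascular endothelium, was highest in endothelial cells at 9.70, 4.28, 0 and 16.8 CPM.

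**Figure D1:**
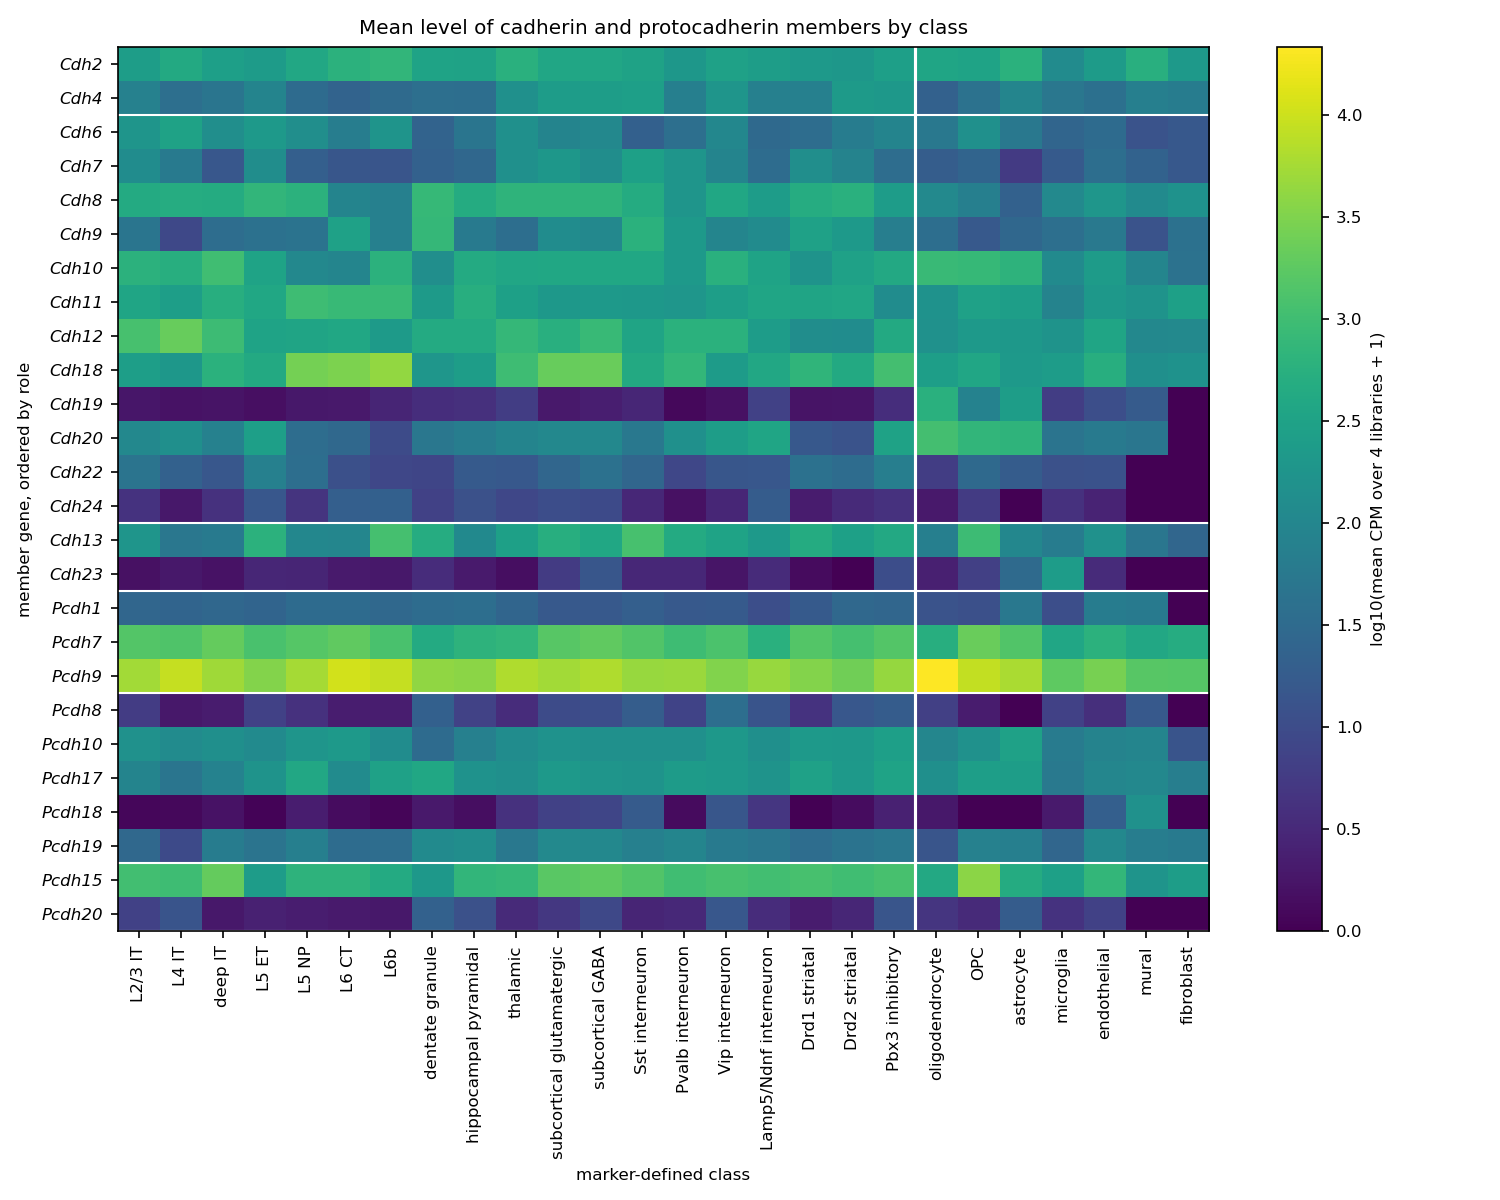
Mean level over 4 libraries, as log10(CPM + 1), of the 26 genes that reached 20 CPM (rows, grouped by role with white lines) in 19 neuron subtypes (left of the white line) and 7 glial and vascular classes. Cdh18 stands out in L6b and L6 CT neurons, Cdh12 in L4 IT neurons, Cdh19 and Cdh20 in oligodendrocytes, Cdh23 in microglia and Pcdh18 in mural cells.

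Several type II cadherins differed widely between layers of the cortex, and so did Cdh13, described below. Cdh18 was highest in neurons of layer 6b (L6b), at 4627, 3503, 4357 and 4283 CPM, next in corticothalamic layer 6 neurons (L6 CT), at 3408, 2355, 3467 and 2932, and then in near-projecting layer 5 neurons (L5 NP). At the other end stood layer 4 neurons (L4 IT), with a mean of 199 ± 29.6 CPM, and dentate granule neurons, with 189 ± 61.4. Every L6b library was above every L6 CT library, and the means of the highest and lowest subtype were 22.2-fold apart. Cdh12, which lies next to Cdh18 on chromosome 15, had another order: it was highest in L4 IT neurons, at 1959, 2284, 1956 and 2189 CPM, and next in L2/3 IT neurons, at 1158, 1141, 1190 and 1295, with no overlap. Among neurons it was lowest in Drd1 and Drd2 striatal neurons, with means of 133 ± 109 and 126 ± 43.8 CPM.

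Among the 23 genes that reached 20 CPM in a neuron subtype, Cdh9 had the widest range over neurons, with 103-fold between its means in dentate granule neurons (914, 649, 648 and 907 CPM) and L4 IT neurons (10.2, 11.6, 2.76 and 5.62). Somatostatin (Sst) interneurons came next at 653, 559, 541 and 589 CPM, overlapping the dentate libraries, followed by L6 CT neurons at 302 ± 40.8. Cdh6 was nearly its mirror image. It was highest in L4 IT neurons, at 343, 304, 255 and 361 CPM, and next in extratelencephalic layer 5 neurons (L5 ET), at 241, 184, 207 and 212. Its lowest means among neurons were in Sst interneurons (19.9 ± 8.18) and dentate granule neurons (23.4 ± 25.0), the latter resting on 24 UMIs in all.

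Cdh8 and Cdh10 were both low in L6 CT neurons and parted in the neighbouring layers. Cdh8 was highest in dentate granule neurons, at 820, 750, 758 and 865 CPM, and next in L5 ET neurons, at 778, 582, 722 and 750, which overlapped. In L6 CT neurons it stood at 79.2, 94.1, 87.0 and 98.9, and in L6b neurons at 82.5, 61.1, 81.5 and 75.7. Cdh10 was highest in deep IT neurons, at 1137, 929, 891 and 1048 CPM, and next in oligodendrocytes, at 847, 790, 844 and 911. Its lowest neuronal means were 92.0 ± 19.5 in L6 CT and 103 ± 21.5 in L5 NP neurons. L6b neurons, low in Cdh8, had a mean of 604 ± 63.1 CPM of Cdh10, and L5 NP neurons, low in Cdh10, had 601 ± 97.2 CPM of Cdh8.

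**Figure D2:**
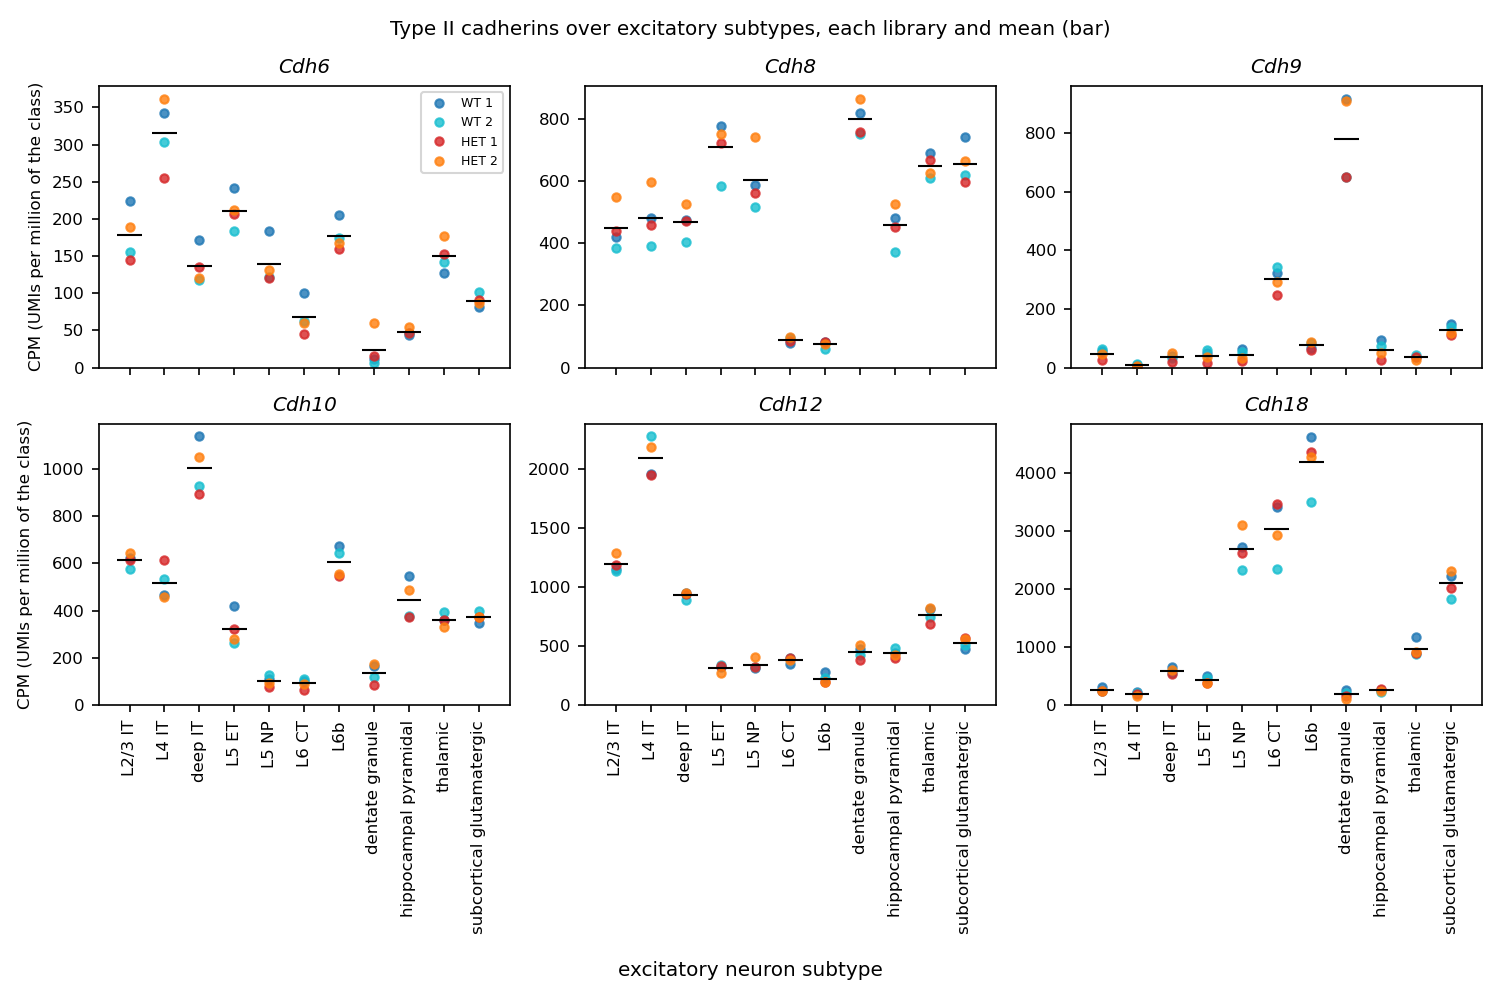
Levels (CPM, linear axes from 0) of 6 type II cadherins in 11 excitatory subtypes, with 1 point per library and a bar at the mean. Cdh18 is high in L5 NP, L6 CT and L6b neurons, Cdh8 is low in L6 CT and L6b neurons, Cdh12 and Cdh6 peak in L4 IT neurons, and Cdh9 is highest in dentate granule neurons.

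Cdh11 was highest in L5 NP neurons, at 969, 863, 1099 and 974 CPM, and next in L6b neurons, at 843, 795, 827 and 876, which overlapped. L6 CT neurons followed at 820 ± 39.7 CPM, so these 3 subtypes, neighbours in depth, were the highest for this gene. Cdh7 was highest in Sst interneurons, at 298, 243, 329 and 289 CPM, above every library of subcortical glutamatergic neurons, at 204, 214, 182 and 182. Cdh22 overlapped between its highest classes, L5 ET neurons (60.7, 82.3, 97.6 and 65.8 CPM) and Pbx3 inhibitory neurons (71.5, 66.4, 80.9 and 66.5). Cdh24 was low everywhere and highest in L6b (17.7, 27.0, 18.8 and 19.4 CPM) and L6 CT neurons (14.9, 27.2, 20.9 and 15.5).

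Among type II genes, Cdh19 and Cdh20 were highest in glia. Cdh20 was highest in oligodendrocytes, at 986, 1019, 1231 and 1097 CPM, with no overlap with OPC, at 451, 831, 884 and 683. The 47 astrocytes, at 711, 629, 256 and 989, overlapped in HET replicate 2, which held 4 of them. Among neurons, its mean was 355 ± 33.6 in Lamp5/Ndnf interneurons and 8.67 ± 3.93 in L6b neurons. Cdh19 had 450, 616, 607 and 568 CPM in oligodendrocytes and 237, 332, 205 and 247 in astrocytes, and its highest mean in any neuron subtype was 5.80 CPM. Cdh7, Cdh19 and Cdh20 are neighbours on chromosome 1 of the mouse (GRCm38, chr1:109982431-110140157, chr1:110888326-110977584 and chr1:104768529-104995481), and of these Cdh19 and Cdh20 were highest in oligodendrocytes.

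Of the type I cadherins, only Cdh2 and Cdh4 were expressed. Cdh2 (N-cadherin), a general adhesion molecule of neural tissue, varied little: its highest mean was in L6b neurons (739, 666, 682 and 716 CPM), next came L6 CT neurons (682, 551, 609 and 586), and the lowest neuronal mean was 196 ± 87.9 in Drd2 striatal neurons, 3.57-fold below the top. Cdh4 (R-cadherin) was highest in Sst interneurons, at 274, 265, 292 and 267 CPM, and overlapped with subcortical GABA neurons, at 211, 302, 270 and 249.4. It was lowest among neurons in L6 CT, at 22.9 ± 8.91.

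Cdh13 (T-cadherin), which is held by a lipid anchor and has no cytoplasmic tail, was highest in Sst interneurons (1126, 1099, 1342 and 1168 CPM) and overlapped with L6b neurons (1111, 1349, 1043 and 1068). In L4 IT neurons its mean was 52.1 ± 37.5 CPM and in deep IT neurons 60.9 ± 17.6. In OPC it had 536, 617, 566 and 1965 CPM, the last from 6 nuclei. Cdh23, which forms the tip links of hair cells together with the protocadherin Pcdh15, was highest in microglia: 227, 236, 191 and 330 CPM in microglia against a mean of 30.9 ± 61.8 in astrocytes, where 3 of 4 libraries had none, and 13.4 ± 1.42 in subcortical GABA neurons. Pcdh15 did not share this class. It was highest in OPC, at 3949, 3807, 3081 and 4186 CPM, and next in deep IT neurons, at 2048, 2262, 1835 and 2012, with no overlap.

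The 250 bases before the annotated start of Cdh23 and of Cdh20 are shown as examples (RefSeq, GRCm38.p6). Both genes had their highest mean in a glial class and did not overlap with the next class. This also held for Pcdh9 and Pcdh15, which are not shown. The genes and the motif for each were picked by hand. GAGGAA, the core that the myeloid factor PU.1 binds, and its reverse complement TTCCTC are in capitals for Cdh23, and ACAAAG or CTTTGT, cores that SOX factors bind, were looked for in Cdh20. Cdh19 had no entry in the promoter table.
Cdh23, chr10:60696491-60696740, minus strand: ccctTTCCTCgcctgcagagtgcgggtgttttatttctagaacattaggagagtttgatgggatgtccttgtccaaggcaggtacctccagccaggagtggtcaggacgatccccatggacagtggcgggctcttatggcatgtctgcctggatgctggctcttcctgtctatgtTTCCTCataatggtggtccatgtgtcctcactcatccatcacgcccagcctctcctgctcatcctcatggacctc
Cdh20, chr1:104768270-104768519, plus strand: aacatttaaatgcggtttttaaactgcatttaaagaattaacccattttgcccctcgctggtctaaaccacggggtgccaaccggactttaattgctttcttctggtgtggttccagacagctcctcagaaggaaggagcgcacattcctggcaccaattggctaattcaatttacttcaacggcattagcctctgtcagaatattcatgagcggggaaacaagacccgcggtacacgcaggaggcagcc
The Cdh23 window held 2 matches, both on the reverse strand, and the Cdh20 window 0. Over 32851 such windows, 23.3% held GAGGAA or its reverse complement and 16.5% held ACAAAG or its reverse complement.

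Of the delta-1 protocadherins, Pcdh9 was highest in oligodendrocytes with 21287, 20564, 20281 and 23811 CPM there, about 1.97 times its mean in L6 CT neurons (11509, 9934, 11130 and 11136). Its mean in neurons ranged over 4.48-fold, down to 2441 ± 434 in Drd2 striatal neurons. Pcdh7 was highest in OPC (1608, 2060, 2537 and 2734 CPM) and overlapped with deep IT neurons (1925, 1917, 1949 and 2321). Dentate granule neurons had its lowest neuronal mean, 446 ± 125. Pcdh1 was highest in endothelial cells, at 66.7, 42.8, 87.1 and 60.6 CPM. Mural cells (46.7, 0, 181 and 0) came next, with 48 nuclei in all, and hippocampal pyramidal neurons stood at 36.2 ± 4.84.

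The delta-2 protocadherins bind the WAVE complex, which drives actin branching. Pcdh17 was highest in L5 NP neurons, at 389, 443, 316 and 429 CPM, next to dentate granule neurons, at 353, 330, 489 and 351, and lowest in L4 IT neurons, at 48.1 ± 18.8. Pcdh10 had 316, 227, 307 and 371 CPM in astrocytes and 268, 241, 296 and 288 in Pbx3 inhibitory neurons, with the lowest neuronal mean in dentate granule neurons (31.1 ± 20.1). Pcdh19, an X-linked gene mutated in an epilepsy of girls, was highest in hippocampal pyramidal neurons (136, 143, 105 and 135 CPM), overlapped with dentate granule neurons (125, 119, 79.6 and 145), and stood at 104 ± 7.27 in endothelial cells. Pcdh18 had 233, 65.2, 181 and 131 CPM in mural cells, against 15.8, 8.55, 24.9 and 30.3 in endothelial cells, with no overlap. Pcdh8 was highest in Vip interneurons (33.0, 36.7, 30.1 and 44.5 CPM), above dentate granule neurons (26.0, 15.4, 26.5 and 12.1). Pcdh20 was highest in dentate granule neurons, at 16.3, 19.8, 22.7 and 24.2 CPM, and its next class was 47 astrocytes, at 0, 17.5, 51.2 and 0.

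Glial and vascular nuclei also held RNA of neurons. The median ratio to all neurons of 7 pan-neuronal markers ranged over the libraries from 0.129 to 0.276 in oligodendrocytes, 0.119 to 0.285 in microglia and 0.280 to 0.579 in endothelial cells. A gene was therefore counted as present in such a class above this level only when its own ratio exceeded that of each of the 7 markers in every library, WT and HET, so a gene that was lower in 1 genotype could miss it. By this measure 13 of the 33 genes stood above it in oligodendrocytes, 11 in astrocytes, 10 in OPC, 4 in microglia, 3 in endothelial cells and 2 in mural cells. The share over all genes was not computed, so these counts do not show whether the family stands out. In microglia these were Cdh23, at 40.3 to 86.9 times its neuronal level, and, close to the limit, Pcdh19, Pcdh17 and Cdh2 (ratios from 0.187 to 0.619). In endothelial cells they were Pcdh18 (3.24 to 23.4), Pcdh1 (1.55 to 3.20) and Pcdh19 (1.62 to 2.40), and in mural cells Pcdh18 (24.7 to 118) and Cdh2 (0.931 to 2.51). The measure has no minimum count, and Cdh23 was among the 13 genes in oligodendrocytes with 2, 3, 1 and 1 UMIs. Pcdh12 missed it in endothelial cells, with 0 UMIs in HET replicate 1, though its ratio was 303 to 964 in the libraries that gave one.

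**Figure D3:**
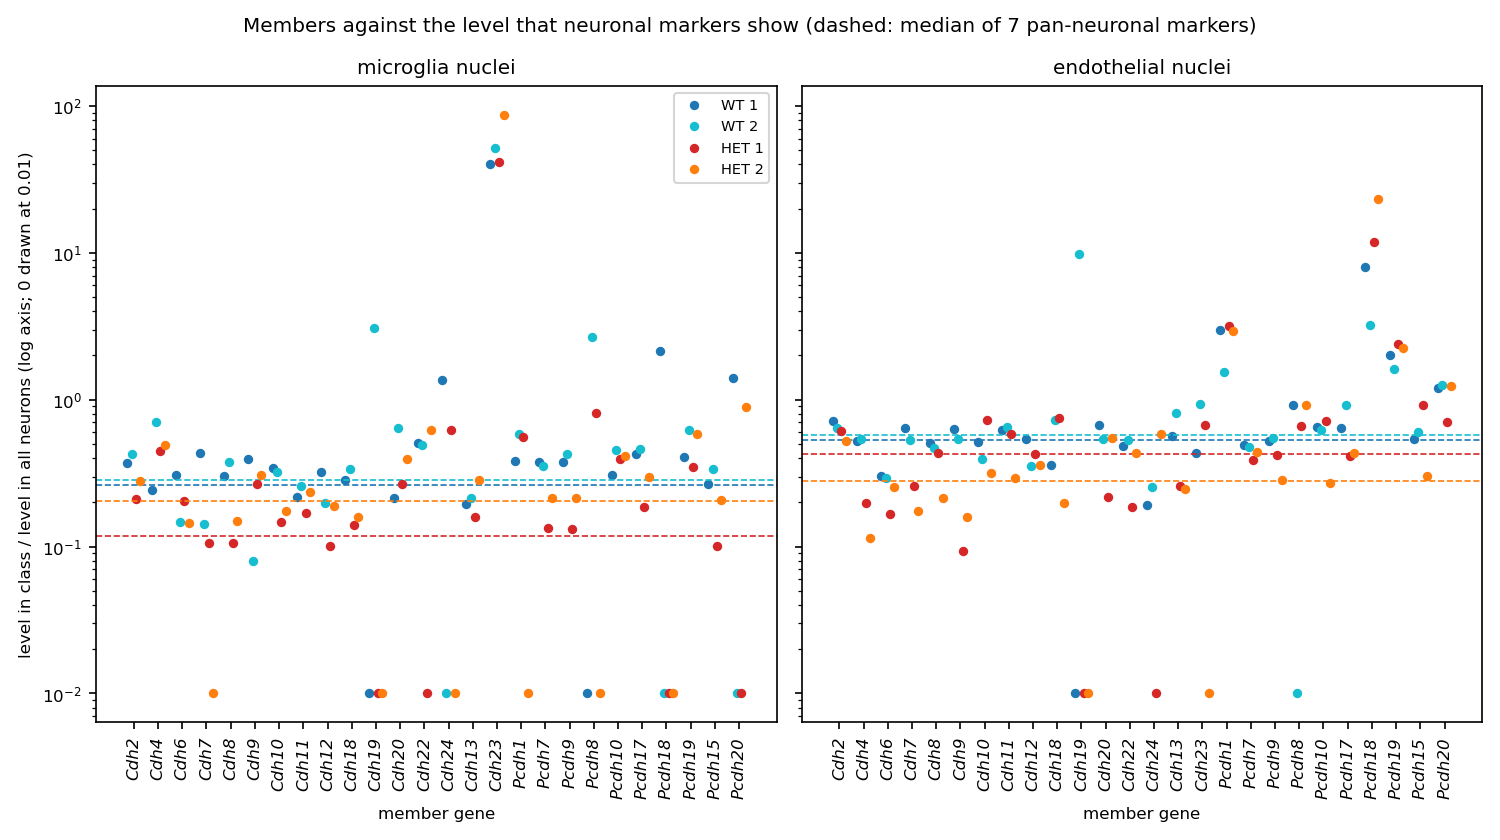
Ratio of the level in microglia (left) or endothelial cells (right) to the level in all neurons (log axis, ratios of 0 drawn at 0.01), 1 point per library, with the median ratio of 7 pan-neuronal markers dashed in the same colour. Most genes sit near the dashed lines of their library, while Cdh23 in microglia lies between 40.3 and 86.9 and Pcdh18 in endothelial cells between 3.24 and 23.4.

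To describe how far these genes told neuron subtypes apart, each of the 171 pairs of the 19 subtypes was compared for the 23 genes with 20 CPM in at least 1 of them, counting a gene when the means were 2-fold or more apart, the higher was at least 20 CPM and the libraries did not overlap. A median of 9 of the 23 genes differed per pair, with a range from 0 to 17. Over all combinations this was 38.6% (1519 of 3933), beside 13.1% of combinations of pairs with any of the 8475 genes that reached 20 CPM. Those genes were not matched to the 23 for level above this minimum, so the 2 shares are not like for like. L6b and dentate granule neurons were the pair told apart by 17 genes, beside 14.9% of all genes. Subcortical GABA and subcortical glutamatergic neurons differed in none, beside 1.22% of all genes. Drd1 and Drd2 striatal neurons differed in Cdh4 alone, beside 1.12%. At such low shares, few or none of 23 genes would differ in any case. Cdh13 differed in 99 of 171 pairs, and the 11 type II cadherins in a median of 85 pairs per gene, with a range from 14 to 114. The type I genes Cdh4 and Cdh2 differed in 101 and 31 pairs. The medians were 44.5 for 4 delta-2, 34 for 3 delta-1 and 38 for 2 other protocadherins. Cdh9 and Cdh20 differed in 114 pairs each, Cdh18 in 108 and Cdh7 in 104, while Cdh24 and Pcdh20 differed in 14 each.

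**Figure D4:**
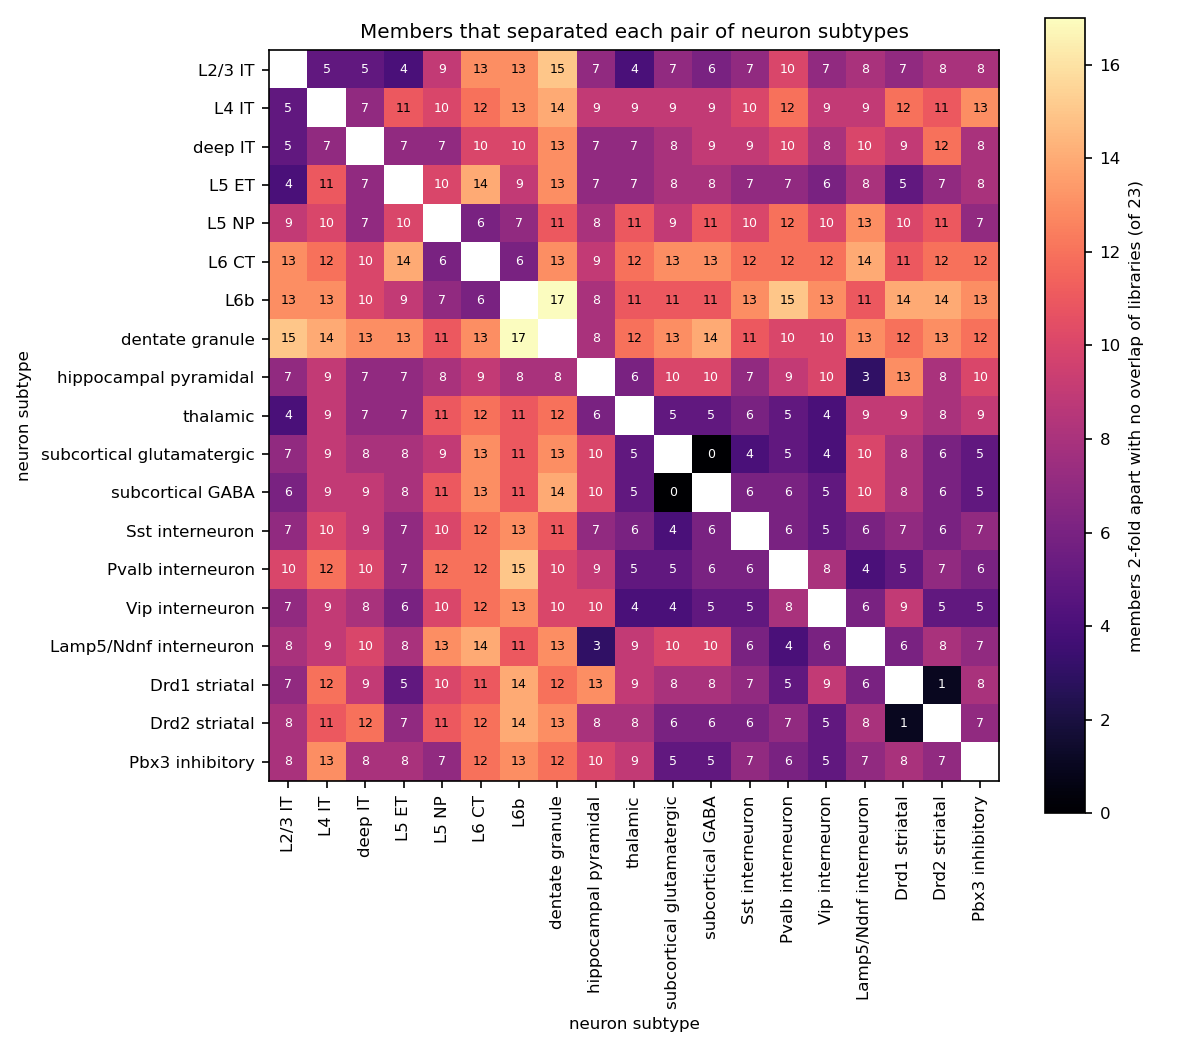
Number of the 23 genes that were 2-fold or more apart with no overlap of libraries, for each pair of 19 neuron subtypes (both axes). The counts run from 0 for the subcortical GABA and glutamatergic pair to 17 for L6b against dentate granule neurons, and dentate granule, L6 CT and L6b neurons hold many of the high counts.

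Over the 253 pairs of the 23 genes, the correlation of log2(CPM + 1) across the 19 subtypes, which share the same 4 libraries, had a median of -0.003, with 4 pairs over 0.6 and 6 under -0.6. The most alike were Pcdh9 and Cdh2 (r = 0.82), Cdh7 and Cdh4 (r = 0.74), Pcdh10 and Pcdh7 (r = 0.69) and Cdh4 and Pcdh8 (r = 0.65). The most opposed were Cdh6 and Cdh9 (r = -0.86), which are neighbours in a row of 5 type II cadherins on chromosome 15 (GRCm38): Cdh6 (chr15:13028701-13173675), Cdh9 (chr15:16728756-16857094), Cdh10 (chr15:18818947-19014236), Cdh12 (chr15:20449265-21589533) and Cdh18 (chr15:22549022-23474418). Along this row Cdh9 and Cdh10 had r = -0.51, Cdh10 and Cdh12 0.42, and Cdh12 and Cdh18 -0.22. On chromosome 14, Pcdh8 and Pcdh9 were opposed (r = -0.66), but Pcdh17 and Pcdh20 lie between them. Along that row Pcdh8 and Pcdh17 had r = 0.45, Pcdh17 and Pcdh20 -0.03, and Pcdh20 and Pcdh9 -0.14.

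Set per length, the order of the genes changed. Whether intron reads were counted is not given, so the gene span may not be the length that matters. By mean CPM over the neuron subtypes per 100 kb of gene span, Pcdh9 remained first at 614, then Pcdh7 at 310, Pcdh10 at 271, Cdh11 at 256 and Pcdh17 at 217. Cdh18, with a span of 925 kb, stood at 120, Pcdh15, with 1550 kb, at 65.2, and Cdh12, with 1140 kb, at 50.6.

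Pairs of classes were then tested on summed counts with edgeR's quasi-likelihood test and the library as a covariate, over all genes detected in at least 10% of the nuclei of either class. A gene was called at an adjusted p (Benjamini-Hochberg) under 0.05 with at least a 2-fold difference. The classes come from other genes of the same nuclei, so these tests give the size of a difference and not whether the classes exist. The error estimate of a gene borrows from the other genes tested. Even very small p-values therefore do not rest on the gene's own spread between the 4 libraries alone.

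Excitatory and inhibitory neurons differed in 3 of 20 genes tested, beside 8.62% of all genes. Cdh4 was higher in inhibitory neurons, with 206, 203, 195 and 196 CPM against 79.9, 105, 68.5 and 65.5 (log2 difference of excitatory minus inhibitory neurons -1.21 ± 0.09 SE, adjusted p = 2.56e-05). Cdh11 (1.19 ± 0.06, adjusted p = 2.91e-06) and Cdh6 (1.08 ± 0.05, adjusted p = 2.93e-06) were higher in excitatory neurons, with no overlap of libraries. The partners Wasf1, of the WAVE complex, and Nectin3, an adhesion protein, were also higher in excitatory neurons.

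L2/3 IT and L6 CT neurons differed in 13 of 21 genes, 8 higher in L2/3 IT and 5 in L6 CT, beside 12% of all genes. Cdh18 had 318, 254, 242 and 237 CPM in L2/3 IT against 3408, 2355, 3467 and 2932 in L6 CT neurons (log2 difference -3.47 ± 0.09, adjusted p = 2.68e-09). Cdh7 went the other way, with 139, 136, 92.5 and 141 against 16.6, 12.4, 8.96 and 15.7 (3.29 ± 0.07, adjusted p = 1.14e-09). Cdh10 (2.81 ± 0.12) and Cdh8 (2.37 ± 0.08) were higher in L2/3 IT neurons, and Cdh9 (-2.64 ± 0.11) and Cdh24 (-2.50 ± 0.13) in L6 CT neurons, with adjusted p from 7.91e-09 to 1.73e-07. In the partner list of 25 catenins, nectins, scaffolds and actin regulators, Nectin3 and Nectin1 passed, both immunoglobulin-like adhesion proteins that act beside cadherins. Nectin3 had 379, 181, 176 and 316 CPM in L2/3 IT and 10.3, 7.65, 5.04 and 5.68 in L6 CT neurons (5.27 ± 0.13, adjusted p = 1.86e-09).

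Dentate granule and hippocampal pyramidal neurons differed in 9 of 20 genes, beside 12.6% of all genes. Cdh9 stood at 914, 649, 648 and 907 CPM in dentate granule and at 93.8, 73.7, 26.8 and 49.7 in pyramidal neurons (log2 difference 3.61 ± 0.16, adjusted p = 6.85e-15). Cdh13 (2.18 ± 0.14) and Pcdh8 (1.65 ± 0.40) were also higher in dentate granule neurons. Pcdh15 (-1.76 ± 0.18), Cdh10 (-1.73 ± 0.13) and Cdh6 (-1.48 ± 0.33) were higher in pyramidal neurons, and the adjusted p of these 5 ranged from 9.99e-12 to 2.54e-03. Of the partners, only Vcl (vinculin, an actin linker) passed, with means of 30.6 CPM in dentate granule and 95.1 in pyramidal neurons.

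Among interneurons, Sst and Pvalb types differed in 7 of 21 genes (7.57% of all genes) and Vip and Lamp5/Ndnf types in 7 of 20 (6.96%). Sst interneurons had more Cdh4 (means 274 and 73.8 CPM, log2 difference 1.90 ± 0.10, adjusted p = 6.13e-11), Cdh22 (1.75 ± 0.21), Pcdh8 (1.55 ± 0.21), Cdh9 (1.48 ± 0.10) and Cdh13 (1.43 ± 0.09). Pvalb interneurons had more Cdh20 (means 53.3 and 147 CPM, -1.44 ± 0.09, adjusted p = 3.75e-10). Of the partners, Magi1 and Ctnna1 (alpha-catenin) were higher in Pvalb and Cyfip1, of the WAVE complex, in Sst interneurons. Vip interneurons had more Cdh6 (means 101 and 29.8 CPM, 1.77 ± 0.17, adjusted p = 4.81e-08), Pcdh8 (1.64 ± 0.27), Cdh7 (1.43 ± 0.16), Cdh12 (1.31 ± 0.11) and Cdh4 (1.29 ± 0.14). Cdh24 was higher in Lamp5/Ndnf interneurons, with 19.5, 14.3, 21.9 and 12.2 CPM against 3.57, 1.63, 1.16 and 1.53 (-2.90 ± 0.40, adjusted p = 1.20e-05). No partner passed there.

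Drd1 and Drd2 striatal neurons, the direct and indirect pathway types, differed in 1 of 19 genes, beside 1.31% of all genes. Cdh4 had 69.2, 69.2, 77.7 and 83.7 CPM in Drd1 and 375, 127, 195 and 210 in Drd2 neurons (log2 difference -1.47 ± 0.20, adjusted p = 3.07e-05). Every Drd2 library was above every Drd1 library, with WT replicate 1 the highest.

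Oligodendrocytes and OPC differed in 7 of 16 genes, beside 32.6% of all genes. OPC had more Cdh13 (log2 difference -3.17 ± 0.27), Pcdh15 (-2.92 ± 0.26) and Pcdh7 (-1.87 ± 0.26), and oligodendrocytes more Cdh19 (2.73 ± 0.36), Pcdh9 (1.58 ± 0.25) and Cdh8 (1.41 ± 0.46, adjusted p = 7.35e-03). The first 5 had adjusted p from 1.91e-29 to 3.94e-09. Of the partners, 6 passed: Pkp4, Magi2, Ctnna3 and Ctnna1 were higher in oligodendrocytes, and Cyfip2 and Ctnnd2 (delta-catenin, a neuronal catenin) in OPC. Cdh8 stood above the level of the pan-neuronal markers in neither class.

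Endothelial and mural cells differed in 5 of 17 genes, beside 5.82% of all genes. Pcdh18 was higher in mural cells (log2 difference -2.91 ± 0.65, adjusted p = 7.83e-04). Pcdh15 (2.86 ± 0.59), Cdh18 (2.40 ± 0.59), Cdh12 (2.05 ± 0.60) and Pcdh9 (1.51 ± 0.46) were higher in endothelial cells, with adjusted p from 1.84e-04 to 0.0236. The median ratio of the pan-neuronal markers was also higher there, at 0.280 to 0.579 against 0.138 to 0.213 in mural cells, and its part in the result was not tested. Ctnna2 and Ctnnd2, both neuronal catenins, were the partners that passed, in the same direction. The count was 1 without high doublet scores and 1 without HET replicate 1.

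The effect of losing 1 copy of Csf1r was tested per class as HET minus WT, with edgeR's quasi-likelihood test on the 4 sums, and genes were called at an unadjusted p under 0.01, the study's threshold. The study applied that threshold to edgeR's likelihood-ratio test with a further mouse per genotype, so the calls are not directly comparable. Each library is 1 mouse, with 2 brains of each genotype. The error estimate of a gene also borrows from the other genes of the class, so p-values do not rest on its own spread alone. A gene was tested when detected in at least 10% of the nuclei of either genotype. It could thus enter through the genotype where it was higher alone, which favours that direction. In the 5 broad classes, adjusted p under 0.05 was reached by 0.474% of all combinations of gene and class.

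In excitatory neurons, 1 of 20 genes passed, beside 0.233% of all genes. Cdh13 fell in HET, from 291 and 298 to 188 and 224 CPM (here over the tested genes and scaled by TMM, a trimmed mean of ratios, so not on the scale of the levels above), with both HET libraries below both WT libraries (log2 fold change -0.52 ± 0.12 SE, adjusted p = 0.9999). It was -0.49 without WT replicate 2 and -0.40 without HET replicate 1, and did not pass in either case. The largest difference was that of Cdh9, which did not pass, with 178 and 145 CPM in WT and 93.8 and 122 in HET (-0.58 ± 0.17). The mix of subtypes in these sums also differed between libraries, and its part in both differences was not tested. Of 9774, 7649, 5768 and 7647 excitatory nuclei by library, 368, 258, 152 and 224 were L6b neurons, high in Cdh13. L4 IT neurons, low in Cdh13 and Cdh9, were 1263, 763, 812 and 1052. In inhibitory neurons 0 of 19 genes passed, and 0 had an unadjusted p under 0.05, by edgeR, beside 0.104% of all genes that passed. DESeq2 also called 0 there. Cdh9 again differed most, with 216 and 176 CPM in WT and 153 and 189 in HET (-0.20 ± 0.14).

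The difference between the genotype effects of excitatory and inhibitory neurons passed an adjusted p under 0.05 for 0 of 20 genes and for 0% of all genes. At an unadjusted p under 0.05 stood 5 of the 20, beside 410 of all 7462 genes tested. The share of all genes under 0.01 was not computed. The mix of subtypes within each class did not enter the model, and its part in these differences was not tested. The 3 genes with an unadjusted p under 0.01 were Cdh13 (effect in excitatory minus effect in inhibitory neurons -0.50 ± 0.08 on the log2 scale, adjusted p = 0.306), Cdh9 (-0.39 ± 0.07, adjusted p = 0.333) and Cdh8 (0.33 ± 0.07, adjusted p = 0.474).

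Over the 19 neuron subtypes, 16 of 371 combinations of gene and subtype passed, 13 of them lower and 3 higher in HET. This was 4.31%, beside 0.714% of all combinations of gene and subtype. The median log2 fold change of the 371 was -0.05, and that of all genes 0.00. Of the 371, 1 passed an adjusted p under 0.05, as did 0.0116% of all combinations. By edgeR, the adjusted p of the other 15 ranged from 0.170 to 0.99996. The subtypes share the same 4 brains and the excitatory subtypes share nuclei with the broad class above.

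Cdh13 and Cdh9 made up 7 of the 16, Cdh13 in 3 subtypes and Cdh9 in 4. Cdh13 fell in L2/3 IT neurons from 210 and 275 to 122 and 124 CPM (log2 fold change -0.98 ± 0.16), in L5 NP neurons from 114 and 132 to 91.4 and 74.0 (-0.58 ± 0.17), and in Drd1 striatal neurons from 905 and 449 to 212 and 417 (-1.10 ± 0.33). In these 3 subtypes no HET library reached a WT library. Cdh9 fell in L5 ET neurons from 50.4 and 58.1 to 16.9 and 36.4 CPM (-0.99 ± 0.30), in L5 NP neurons from 69.0 and 54.1 to 24.8 and 33.9 (-1.06 ± 0.24), in hippocampal pyramidal neurons from 97.8 and 72.9 to 27.7 and 52.6 (-1.12 ± 0.30), and in subcortical glutamatergic neurons from 161 and 144 to 115 and 122 (-0.36 ± 0.11). With high doublet scores removed, Cdh9 in L5 ET neurons (-0.54), Cdh9 in L5 NP neurons (-0.76) and Cdh13 in L5 NP neurons (-0.51) no longer passed. Cdh13 in Drd1 neurons was -0.55 without WT replicate 1 and -0.68 without HET replicate 1, and did not pass in either case, and -1.68 without HET replicate 2. Without HET replicate 1, Cdh9 did not pass in any of its 4 subtypes, with -0.58 in L5 ET and -0.73 in hippocampal pyramidal neurons. Without HET replicate 2, Cdh9 in L5 ET neurons was -1.70. Cdh13 in L5 NP neurons did not pass without WT replicate 2 or without HET replicate 2.

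The other 9 combinations were spread over 5 subtypes. In Drd2 striatal neurons Pcdh15 rose from 864 and 558 to 1390 and 1360 CPM (log2 fold change 0.96 ± 0.21, adjusted p = 0.0493), and Cdh8 fell from 613 and 876 to 479 and 362 (-0.84 ± 0.23) and Cdh12 from 144 and 192 to 104 and 88.2 (-0.85 ± 0.30). In dentate granule neurons Pcdh7 rose from 375 and 342 to 541 and 620 (0.69 ± 0.19) and Pcdh15 fell from 328 and 243 to 101 and 183 (-1.07 ± 0.29). These rest on few nuclei: 33 and 37 HET nuclei for Drd2 and 36 and 30 for dentate granule neurons. Cdh7 fell in L5 NP neurons from 28.7 and 35.3 to 6.38 and 10.7 CPM (-1.86 ± 0.35). With 168 and 257 HET nuclei, it met the detection filter through WT alone. In Pvalb interneurons Cdh20 rose from 140 and 120 to 168 and 187 (0.45 ± 0.13) and Cdh4 fell from 97.0 and 87.8 to 66.3 and 57.2 (-0.58 ± 0.15). In Vip interneurons Pcdh19 fell from 63.9 and 94.6 to 46.7 and 47.9 (-0.75 ± 0.25). Without WT replicate 2, Pcdh19 in Vip interneurons was -0.43 and Cdh8 in Drd2 neurons -0.54, and without HET replicate 1, Pcdh15 in dentate granule neurons was -0.70, none of which passed. Pcdh7 in dentate granule neurons, Cdh20 and Cdh4 in Pvalb interneurons and Cdh12 in Drd2 neurons also did not pass with at least 1 of the libraries left out.

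**Figure D5:**
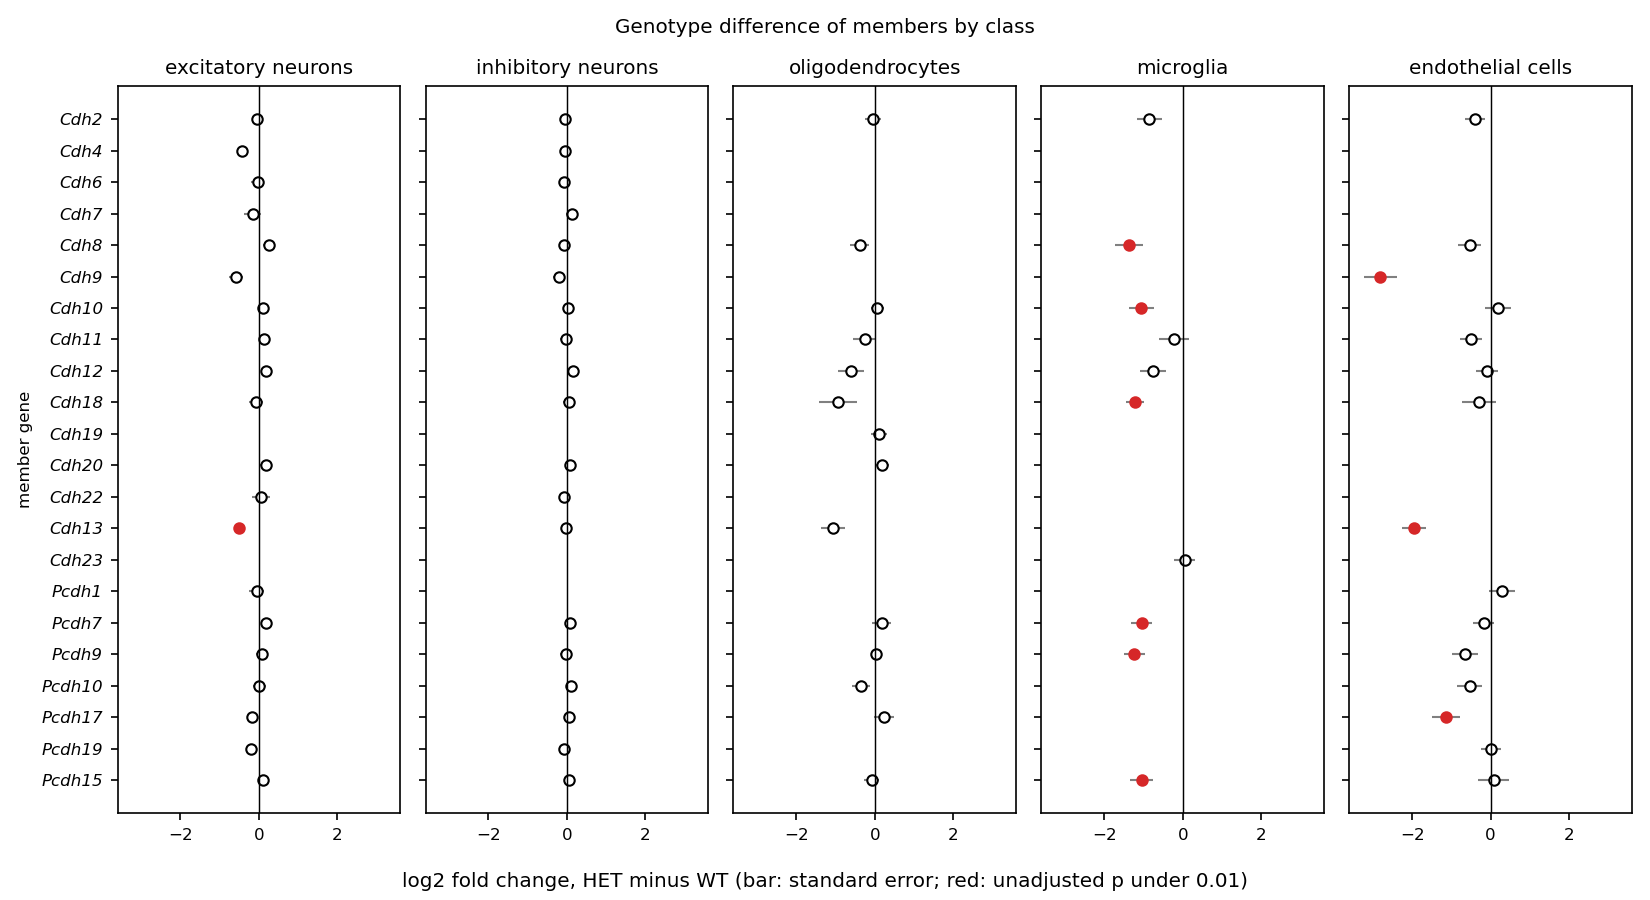
Log2 fold change (HET minus WT) with its standard error for each gene tested in the 5 broad classes, with genes at an unadjusted p under 0.01 in red and the others open. In neurons and oligodendrocytes 1 gene is red, Cdh13 in excitatory neurons, while 6 of 10 in microglia and 3 of 15 in endothelial cells are red, each below 0.

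In oligodendrocytes, 0 of 14 genes passed by edgeR, with 1 at an unadjusted p under 0.05, beside 0.399% of all genes that passed, and DESeq2 also called 0. The genes that mark these cells did not pass: Cdh19, Cdh20 and Pcdh9 were among the 14. Cdh13 had the largest difference, with 144 and 87.7 CPM in WT and 47.8 and 61.8 in HET (log2 fold change -1.05 ± 0.31). Of the 7 pan-neuronal markers, 3 were lower in both HET than in both WT libraries there. When neuron RNA at their median ratio was subtracted from each sum, 1 gene passed, and the cause of this change was not tested.

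In microglia, 6 of 10 genes passed, each lower in HET, beside 6.65% of all genes. Cdh8 had 13 and 16 UMIs in the 175 and 151 HET nuclei, so it met the detection filter through WT alone. Pcdh9 fell from 3347 and 3324 to 1032 and 1816 CPM (log2 fold change -1.23 ± 0.27, adjusted p = 0.0301). Cdh18 fell from 471 and 423 to 176 and 211 (-1.21 ± 0.24, adjusted p = 0.0246), and Cdh8 from 187 and 214 to 61.8 and 96.5 (-1.36 ± 0.35, adjusted p = 0.0455). Pcdh7 (-1.05 ± 0.26, adjusted p = 0.0449), Pcdh15 (-1.05 ± 0.29, adjusted p = 0.0570) and Cdh10 (-1.06 ± 0.32, adjusted p = 0.0824) also fell. No HET library reached a WT library for any of the 6. Cdh23, the gene that marked microglia, had 301 and 316 CPM in WT and 238 and 410 in HET (0.05 ± 0.26).

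Each of the 6 genes was highest in a class other than microglia. In WT microglia Pcdh9 was above the highest marker in both libraries (0.376 and 0.424 against 0.353 and 0.404) and Pcdh7 in WT replicate 1 (0.378), and the other 4 genes were below it. In HET microglia all 6 were below the highest marker, at 0.160 and 0.262. Those markers moved with genotype: 6 of the 7 were lower in both HET than in both WT microglial libraries, and their summed level was 6726 and 6609 CPM in WT and 2740 and 4899 in HET. When neuron RNA at the median ratio of these markers was subtracted from each sum, 2 of the 6 passed. Pcdh9 had 175 and 203 UMIs left in WT and 20 and 11 in HET, and Pcdh7 35 and 22 in WT and 5 and 3 in HET. Negative values were set to 0 and 1 ratio served each library. Neuron RNA left over and a genotype difference therefore cannot be told apart. Cdh23 kept all of its 53, 59, 50 and 68 UMIs. Without HET replicate 1, which had the least neuron RNA, 1 gene passed, Cdh18, while Pcdh7 was at -0.63 and Pcdh15 at -0.56. Without HET replicate 2, Pcdh15 was at -1.66, and without WT replicate 1, Cdh10 did not pass. DESeq2 called 2. Of the partners, Magi2 (-1.22 ± 0.27) and Nckap1 (-1.22 ± 0.39) passed, of 11 tested.

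In endothelial cells, 3 of 15 genes passed, each lower in HET, beside 4.64% of all genes. Cdh9 had 91 and 38 UMIs in WT and 3 and 6 in HET (129 and 95.5 against 10.6 and 21.5 CPM, log2 fold change -2.81 ± 0.42, adjusted p = 3.28e-03). With 90 and 109 HET nuclei, it met the detection filter through WT alone. Cdh13 fell from 219 and 342 to 70.4 and 71.8 CPM (-1.95 ± 0.30, adjusted p = 4.03e-03), and Pcdh17 from 105 and 206 to 66.9 and 68.2 (-1.14 ± 0.35, adjusted p = 0.169). Without WT replicate 2, Pcdh17 was at -0.63 and did not pass. Pcdh19 (0.01 ± 0.25) and Pcdh1 (0.30 ± 0.33) did not pass.

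Neuron RNA moved with genotype in endothelial cells too. In WT, the ratio to neurons of Pcdh17 (0.641 and 0.925) was above the highest marker (0.576 and 0.620) in both libraries, that of Cdh13 in WT replicate 2 (0.815) and that of Cdh9 in WT replicate 1 (0.632). In HET, the lowest marker stood at 0.3306 and 0.2055, with Cdh9 below it in both libraries and Cdh13 in HET replicate 1. Pcdh17 was above the highest marker in HET replicate 2 (0.354) and not in HET replicate 1 (0.7079). Of the 7 pan-neuronal markers, 5 were lower in both HET than in both WT libraries, and their summed level was 12576 and 13591 CPM in WT and 10378 and 6538 in HET. After subtraction Cdh9 had 15 UMIs left in WT replicate 1 and 0 in the other libraries, and Cdh13 had 11 and 40 in WT and 0 in both HET libraries. None of the 3 genes then passed, and Cdh10 alone did, with 0 UMIs left in both WT and 49 and 6 in the HET libraries. Negative values were set to 0 here too, so the same limit holds. Without HET replicate 1 the count was 9. Of 23 partners tested, 3 passed, all lower in HET: Magi2, Cyfip2 and Ctnnd2.

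Over the partner list in neurons, 0 of 23 genes passed in excitatory and 0 of 23 in inhibitory neurons by edgeR, with 0 at an unadjusted p under 0.05 in either. Over the subtypes, Nectin3 in L5 ET neurons (log2 fold change -1.10 ± 0.34) and Vcl in Drd2 striatal neurons (0.94 ± 0.32) passed. The catenins, which link cadherins to actin, passed in no neuron class or subtype.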

How the data were processed

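The authors made Chromium 3′ libraries from nuclei of perfused brains, isolated without detergent and cleared of myelin, and counted UMIs with Cell Ranger 5.0.0, per the file headers, on mm10, per the submitters' processing notes. Whether intron reads were counted is not given in the sources used here. The deposited values are whole-number counts, not normalized. Of each genotype, a further library (the third) is not analysed here. The genes, lists and classes were chosen with earlier results of these data known.

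Filters kept nuclei of at least 500 and at most 50000 UMIs that had over 200 genes detected and a mitochondrial share below 5% (16114, 15247, 9589 and 11182 per library, with a median of 5490, 4636, 7454 and 6656 UMIs). Libraries shared 33 to 68 barcodes, and no 2 were duplicates (chi-square per degree of freedom 32.4 to 86.8). Clusters (leidenalg 0.10.2, Python 3.11.15, 3000 variable genes, 30 components, resolution 2) left out 268 genes, among them all cadherins and partners. They were named from marker lists by a rule that was revised after the clusters were seen. Clusters with over 50% high Scrublet scores were left unnamed. Doublets were otherwise kept. Sums per class and library were tested with edgeR 4.0.16 (R 4.3.3, TMM, quasi-likelihood, two-sided), for genes that had 10 or more counts and were detected in 10% or more of the nuclei of 1 of the groups. Tests were checked on simulated counts with the same dispersion for every gene. That check does not show how they behave with the spread of these libraries. Gene positions are from GENCODE vM21 (GRCm38).

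Values by library were given for genes with at least 20 CPM in a class, in the highest and next class. Genotype values were given for each gene with an unadjusted p under 0.01, the study's threshold, and the largest difference per class, and pair values for up to 6 called genes. Alternatives were edgeR's likelihood-ratio test, DESeq2 1.42.0, RLE factors, no detection filter, at least 1000 UMIs, removal of high Scrublet scores, the replicate number as a block, and leaving out each library. Subtraction of neuron RNA and a set of oligodendrocytes without the cluster mostly of 1 WT library were added after the data were seen.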

Additional observations from a re-analysis of the deposited data

Results flagged for a closer look

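The genotype difference of Pcdh15 pointed opposite ways in 2 neuron subtypes. It rose in HET Drd2 striatal neurons (log2 fold change 0.96 ± 0.21) and fell in HET dentate granule neurons (-1.07 ± 0.29), in each case with no overlap of libraries. The difference of these effects was 2.04 ± 0.31 on the log2 scale (edgeR's quasi-likelihood test with the library as a covariate, adjusted p = 1.88e-07). The error estimate borrows from other genes here too, so this p-value does not rest on the spread of Pcdh15 between mice alone. The pair was chosen for its opposite signs after the values were seen, so this test is not independent of the choice. It rests on 33 and 37 HET nuclei in Drd2 and 36 and 30 in dentate granule neurons, and with high doublet scores removed the dentate difference was -0.71 on the log2 scale and did not pass an unadjusted p under 0.01.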

How the results depend on the processing

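All 26 named genotype differences kept their direction under every alternative that gave a value, and 3 of the 26 passed under every one in which they were tested: Cdh13 in L2/3 IT, Cdh7 in L5 NP (not tested without high Scrublet scores or without WT replicate 2) and Pcdh15 in Drd2 striatal neurons. Of these, Cdh7 met the detection filter through WT alone, which favours a fall in HET. Of the class pairs, only the counts for excitatory against inhibitory neurons and endothelial against mural cells moved by over 1.5 times. Where counts moved, the cause was not tested. The share over all genes was recorded for the main fit only. Counts under an alternative, here and above, therefore do not show whether these genes moved more than others. In excitatory neurons the count of 1 became 3 with the likelihood-ratio test, 3 with DESeq2 and 2 with no detection filter, and 0 to 2 with a library left out (0 without HET replicate 1, 2 without WT replicate 1 or HET replicate 2). In oligodendrocytes the count of 0 became 1 with the likelihood-ratio test, no detection filter, at least 1000 UMIs or neuron RNA subtracted, 2 without high Scrublet scores, and 0 to 3 with a library left out (3 without WT replicate 2), and was 0 without the cluster mostly of 1 WT library. In microglia the count of 6 became 2 with DESeq2, 2 with neuron RNA subtracted, and 1 to 7 with a library left out (1 without HET replicate 1). In endothelial cells the count of 3 became 5 with no detection filter, 5 with at least 1000 UMIs, 1 with neuron RNA subtracted, and 2 to 9 with a library left out (9 without HET replicate 1). Over neuron subtypes the count of 16 became 6 with DESeq2 and 11 to 30 with a library left out (30 without either WT library). Excitatory against inhibitory neurons went from 3 to 7 with no detection filter, to 5 without high Scrublet scores, and to 3 to 5 with a library left out (5 without WT replicate 1). Endothelial against mural cells went from 5 to 3 with DESeq2, to 1 without high Scrublet scores, and to 1 to 4 with a library left out (3 without WT replicate 1, 1 without HET replicate 1). The class where a gene was highest was the same for 32 of 33 genes with at least 1000 UMIs and for 32 of 33 without high Scrublet scores.

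The replicate numbers name different mice, and same-numbered libraries did not deviate together: across genes, the correlation of the WT difference (replicate 1 minus 2) with the HET difference was -0.059, -0.010, -0.285, -0.032 and -0.021 in excitatory neurons, inhibitory neurons, oligodendrocytes, microglia and endothelial cells. With the replicate block, the counts were 1, 0, 0, 6 and 3 in these classes and 20 over the subtypes, against 16 without it. With 2 libraries per genotype, an adjusted p was rarely reached, and in microglia the detection filter left 10 of 33 genes to test, against 21 without it.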
